A study of Drosophila melanogaster with 3 samples.

Results

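Core promoter peaks of the Drosophila melanogaster protein Mabi (CG15479) were the peaks whose summit lay at most 100 bp from the nearest transcription start site (TSS) of a protein-coding transcript. By this rule 895 peaks of the authors' optimal IDR list were members and the other 4154 were not, so that members made up 17.7% of the list (Wilson 95% interval 16.7 to 18.8%). IDR, the irreproducible discovery rate, keeps peaks whose ranks agree between replicates. The samples were 3 biological replicates of 1 group, whole embryos aged 0 to 4 h, male and female pooled, and no second condition. All embryos carried a transgene for Mabi fused at its C-terminus to green fluorescent protein (GFP), chromatin was sheared to 200 to 800 bp, and the fusion protein was precipitated with an anti-GFP antibody. The labels do not say whether untagged Mabi was made as well, and values are averages over all cells of embryos that span several stages. Comparisons were therefore made within peak lists, between core promoter peaks and the other peaks, or between start sites with and without a peak. The replicate and pooled lists held 30000 peaks each, so each replicate was read at its strongest peaks, as many as the IDR list holds. Read depth is unknown here, intervals on counts cover counting error only, and the 3 replicates were called against 1 shared control, per the text deposited with the lists.

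A core promoter is the stretch of DNA around a TSS on which RNA polymerase II and the general transcription factors assemble. In Drosophila, promoters of broadly active genes often hold the DNA replication-related element (DRE), the site of Dref, or Ohler motif 1, the site of M1BP, and ribosomal protein genes start at a TCT initiator. Promoters of regulated developmental genes more often hold a TATA box or an initiator (Inr), and many are opened in the early embryo by Zelda and GAGA factor. Neighbouring genes are often divergent, with their start sites close together and pointing away from each other. Mabi (mabiki) itself is known for a role in the death of embryonic cells. Its own gene was not a member, since the nearest summit lay 431 bp from its TSS. That summit had the highest signal of the IDR list, 8663.

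The promoters below show what the summits sat on. With 1 chromosome arm left out, they are the strongest members that hold a DRE, motif 1, a TATA box, an Inr or a TCT initiator, and the strongest ribosomal protein gene member. On the omitted arm, CG6424 with a TATA box (signal 1077) and a summit at ASPP with a TCT initiator (signal 1621) were stronger than the neur (804) and RpS30 (1063) peaks shown. Motifs were searched as exact letters: TATCGATA for DRE, GGTCACAC for motif 1, CANCNCTA for motif 7, CAGCTG and CACGTG for a pair of E-boxes, CAGGTAG for Zelda, GAGAGAG, CACACACA and GATAAG. These were read on both strands between bases -100 and 50 from the TSS. TATAAA was read on the gene's strand between -45 and -15, TCAGT (Inr) between -10 and 10, and TCTTT or CCTTT (TCT) between -4 and 6. Of all 19276 protein-coding TSS positions, 6.27% held DRE, 5.55% motif 1, 9.99% motif 7, 11.7% CAGCTG, 2.31% CACGTG, 0.846% the Zelda site, 4.13% GAGAGAG, 3.06% CACACACA and 10.5% GATAAG. The TATA box was found at 7.76%, the Inr at 13.1% and TCT at 1.33%. Each sequence runs 5′ to 3′ on the gene's strand from 100 bases before the TSS and is taken from the RefSeq copy of genome Release 6 (dm6). Every motif match that lies wholly within the printed bases is in capitals. CG15561 on 3R:31215913-31216042, minus strand, holds motif 7, DRE with a GATAAG match overlapping it, and CACGTG. UBL3 on X:15853146-15853275, minus strand, holds CAGCTG upstream and motif 1 at the TSS. The promoter of neur, 3R:9033702-9033831, minus strand, holds CAGCTG and a TATA box. That of hry, 3L:8675659-8675788, plus strand, holds an Inr, and a GATAAG match in its search window ends past the printed bases. RpS30 on 3R:20850497-20850626, plus strand, holds a TCT initiator, and RpL7 on 2L:10200904-10201033, plus strand, holds motif 7, motif 1 and CACGTG.
CG15561: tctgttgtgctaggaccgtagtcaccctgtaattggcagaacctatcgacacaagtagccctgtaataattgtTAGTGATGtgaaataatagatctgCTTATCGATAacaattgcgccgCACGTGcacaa
UBL3: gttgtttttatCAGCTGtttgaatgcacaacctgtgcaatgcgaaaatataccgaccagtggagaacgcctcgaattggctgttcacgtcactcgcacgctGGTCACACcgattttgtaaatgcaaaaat
neur: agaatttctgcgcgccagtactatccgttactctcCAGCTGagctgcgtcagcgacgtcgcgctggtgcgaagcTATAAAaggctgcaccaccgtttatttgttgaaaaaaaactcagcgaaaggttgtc
hry: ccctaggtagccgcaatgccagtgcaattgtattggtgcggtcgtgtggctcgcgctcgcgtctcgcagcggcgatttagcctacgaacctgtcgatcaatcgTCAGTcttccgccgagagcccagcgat
RpS30: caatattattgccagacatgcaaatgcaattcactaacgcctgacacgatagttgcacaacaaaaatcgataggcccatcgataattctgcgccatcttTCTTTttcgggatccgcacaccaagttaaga
RpL7: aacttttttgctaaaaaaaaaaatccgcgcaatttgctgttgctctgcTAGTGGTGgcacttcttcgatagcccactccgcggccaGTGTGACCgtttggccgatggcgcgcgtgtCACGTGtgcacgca

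Core promoter summits were centred slightly upstream of the start site. Of the 895 summits, 500 lay upstream, 386 downstream and 9 on the TSS itself, so that 55.9% were upstream (Wilson 95% interval 52.6 to 59.1%). The upstream share was 52.6%, 56.6% and 55.7% in replicates 1, 2 and 3, or 54.9 ± 2.08% (SD, n = 3), which was above 50% in each. The median summit lay at -10 bp, with the middle quartiles between -52 and 39 bp, and 490 summits (54.7%) lay within 50 bp of the TSS. The stretch from -50 to -1 bp held the most summits, 267 (29.8%), and the stretch from 50 to 100 bp the fewest, 176 (19.7%). The same stretches held 29.1% and 19.9% of core promoter summits in replicate 1, 29.3% and 16.7% in replicate 2, and 30.4% and 21.1% in replicate 3. Beyond the 100 bp limit, 732 IDR summits lay up to 500 bp upstream, 526 lay up to 500 bp downstream and 2896 lay farther away. The limit cut through a continuous profile. Just inside it were summits at Svil (100 bp downstream, signal 967) and CrebB (100 bp upstream, signal 937). The nearest summits outside it, both upstream, were another summit at Svil (signal 1600) and a summit at Shrm (signal 677).

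**Figure D1:**
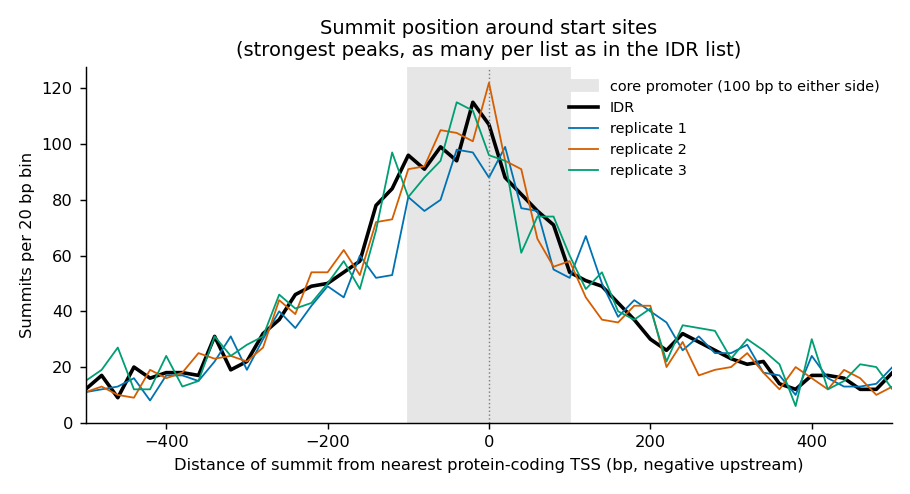
Number of summits in 20 bp bins (vertical axis) by distance from the nearest protein-coding TSS in bp (horizontal axis, negative upstream) for the IDR list and as many of the strongest peaks of each replicate. The grey band marks the 100 bp to either side, and all 4 lists peak near the TSS with no gap at the limit; the median core promoter summit of the IDR list lies at -10 bp.

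The members lay in 882 distinct intervals, of which 141 held more than 1 IDR summit and 13 more than 1 member. The nearest start sites belonged to 853 genes. With every gene counted that has a TSS within 100 bp of a summit, 925 of 13968 protein-coding genes had a core promoter peak, which is 6.62%. In the replicates 819, 959 and 922 genes did, or 5.86%, 6.87% and 6.6%. Of the members, 63 lay within 100 bp of start sites of more than 1 gene, and which of these genes a peak belongs to cannot be told apart.

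With the 100 bp limit and all peaks read, core promoter peaks were neither stronger nor weaker than the other peaks beyond the spread between replicates. The authors' signal, whose scale is not stated and which is used only within a list, reached 3716 among members, with a lowest value of 291. Its median was 464 in members and 476 in the other IDR peaks. The median signal percentile, where 100 is the strongest peak of a list, was 46.6, 50.9 and 46.9 for core promoter peaks in replicates 1, 2 and 3, against 50.5, 49.7 and 50.6 for the other peaks. The difference was -2.17 ± 2.88 percentile points (SD, n = 3; two-sided exact sign-flip permutation test, p = 0.5), and its sign differed in replicate 2. With 3 replicates this test cannot give a p below 0.25, so none of the comparisons here could pass a threshold of 0.05. The mean difference in signal percentile was -6.93 points in the stronger 50% of each list. It was -3.87 with a limit of 50 bp, -3.49 with 1 TSS per gene and -1.64 with a limit of 200 bp. A width of 496 bp, the commonest in the IDR list, was held by 33.1% of members and 23.5% of the other peaks.

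The strongest member was at hry, the pair-rule repressor gene hairy, on 3L:8675306-8676142, with a signal of 3716 and rank 10 of all IDR peaks. The replicate summit nearest to this IDR summit had 22.2, 24.4 and 26.1 times the median signal of the 30000 peaks in replicates 1, 2 and 3, at ranks 11, 7 and 13. The second member by signal was at ASPP, which encodes a protein of the ASPP family of p53-binding regulators, on 2R:21250554-21251596, with 20.9, 21.2 and 23.5 times the median. The peak at lawc on X:8409618-8410490 had 17.3, 18.8 and 21.5 times the median. Both genes hold an Inr, as hry does. The peak at arm, the beta-catenin of Wnt signalling and cell junctions, on X:1898978-1900157, had 15.3, 17.8 and 19.6 times the median, and its promoter holds a CACACACA repeat. All 4 of these peaks were among the 56 strongest of each replicate.

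The next members by signal had varied roles. The peak at SmD3, a core subunit of the spliceosomal ribonucleoproteins, on 2R:12168307-12169273, had 14.0, 17.7 and 17.8 times the median, and the start site of Oda lies 243 bp away on the other strand. The peak at Rga, a subunit of the CCR4-NOT complex that shortens messenger RNA tails, had 15.8, 16.2 and 19.2 times the median. That at Smg5, a factor of nonsense-mediated decay, had 10.6, 11.7 and 14.8 times. Sfmbt, a Polycomb group gene, had 9.62, 12.1 and 12.8 times the median and lies 365 bp from the divergent start site of CG5439. The other strongest members were CG2162, CG43163, l(3)neo38, Lac (Lachesin, a protein of septate junctions), UBL3, CG15561 and Mppe. UBL3, with the start site of CG15914 at 246 bp, spread most between replicates, with 8.68, 13.1 and 16.0 times the median. The peak at l(3)neo38, in an interval 3231 bp wide, had 13.4, 14.3 and 10.5 times.

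**Figure D2:**
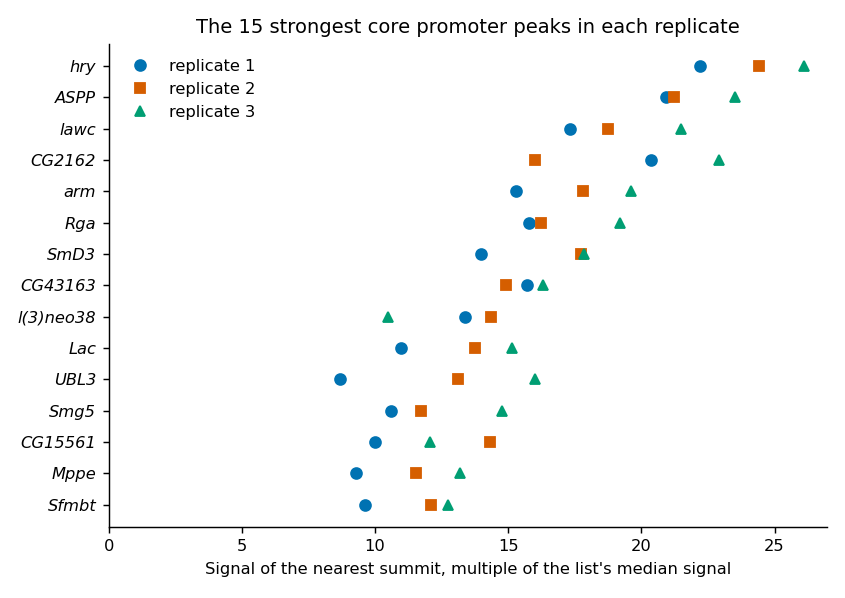
Signal of the summit nearest to the IDR summit in each replicate, as a multiple of that replicate's median signal over 30000 peaks (horizontal axis), for the genes at the 15 strongest core promoter peaks, ordered by signal in the IDR list from hry down. Points are the 3 replicates; every point lies above 8 times the median, and UBL3 spreads from 8.68 to 16.0.

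Most members were found again in each replicate. An IDR peak counted as matched when one of the strongest peaks of a replicate, again as many as in the IDR list, overlapped it by at least 50% of either peak. Of the members, 612 (68.4%) were matched in all 3 replicates, 198 in 2, 81 in 1 and 4 in none. Among the other IDR peaks 71.8% were matched in all 3. The matched share was 79.1%, 91.2% and 88.2% of members in replicates 1, 2 and 3, against 84.3%, 90.7% and 87.9% of the other peaks. The difference was -1.47 ± 3.21 percentage points (SD, n = 3; two-sided exact sign-flip permutation test, p = 1). It came from replicate 1, and without that replicate the mean difference was 0.389 points. The IDR list was itself built from these replicates, so a high matched share is partly set by its making.

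Summit positions at core promoters varied between lists by slightly less than elsewhere in 3 of 3 replicates. Between an IDR summit and the closest replicate summit within 250 bp, the median distance was 21, 14 and 20 bp for members in replicates 1, 2 and 3, against 22, 19 and 22 bp for the other peaks, a difference of -2.67 ± 2.08 bp (SD, n = 3; two-sided exact sign-flip permutation test, p = 0.25). The replicate's summit was also within 100 bp of the TSS for 729, 803 and 769 members, and for 594 (66.4%) in all 3 replicates. For the rest, the summit of at least 1 replicate fell outside the limit or farther than 250 bp away.

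The sequence under core promoter summits differed from that under the other summits. Windows of 100 bp to either side of the summit were read in the 810, 914 and 891 core promoter peaks of replicates 1, 2 and 3. DRE was found in 6.42%, 9.96% and 7.63% of core promoter windows, against 0.637%, 0.895% and 1.08% of the other windows. Motif 1 was found in 7.28%, 8.53% and 8.19% of core promoter windows, against 0.448%, 0.532% and 0.577% of the others. Motif 7 averaged 13.8 ± 1.61% in core promoter windows and 5.92 ± 0.456% in the others, and CAGCTG 16.9 ± 1.07% and 10.7 ± 0.114% (SD, n = 3 each). CACGTG differed less, with 3.73 ± 0.453% of core promoter windows and 3.02 ± 0.117% of the others, a difference of 0.714 points that was 1.36 with a limit of 50 bp and 0.175 with 200 bp. For these 5 motifs core promoter windows were higher in 3 of 3 replicates.

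Matches to the Zelda site, GATAAG and CACACACA were scarcer at core promoter summits. The Zelda site averaged 2.97 ± 0.341% in core promoter windows and 6.67 ± 0.589% in the others (SD, n = 3 each). GATAAG averaged 13.5 ± 0.404% in core promoter windows and 19.4 ± 0.852% in the others, and CACACACA 9.10 ± 0.214% and 14.7 ± 0.254%. With a limit of 200 bp the difference for CACACACA was -2.50 percentage points, against -5.57 with 100 bp. All 3 motifs were lower in core promoter windows in 3 of 3 replicates. GAGAGAG was found in 12.1%, 8.21% and 9.76% of core promoter windows and 11.7%, 11.4% and 11.4% of the others, so its direction differed between replicates. Each of the 8 motifs with 1 direction had p = 0.25 in the two-sided exact sign-flip permutation test over the 3 replicates, and 0.281 after Benjamini-Hochberg adjustment over 9 motifs.

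Set beside promoter peaks a little farther out, core promoter windows differed from both sides in some motifs and from 1 side in others. Peaks upstream of the limit, as far as 500 bp, held GAGAGAG in 17.4 ± 1.14% and the Zelda site in 6.97 ± 1.55% of windows, and core promoter peaks held less of both, by 7.39 ± 0.825 and 4.00 ± 1.88 percentage points (SD, n = 3; the same direction in 3 of 3 replicates). Peaks downstream of the limit, as far as 500 bp, held CACACACA in 26.8 ± 0.971% of windows, 17.7 ± 1.16 points above core promoter peaks in 3 of 3 replicates, and upstream peaks in 13.0 ± 0.198%, 3.92 ± 0.358 points above them in 3 of 3. The Zelda share of downstream peaks, 2.79 ± 0.302%, was close to that of core promoter peaks, with a difference of 0.183 ± 0.251 points. GATAAG was found in 10.8 ± 1.70% of downstream windows, 2.66 ± 1.32 points below core promoter peaks in 3 of 3 replicates. Upstream windows held GATAAG in 16.9 ± 0.504%, 3.46 ± 0.103 points above core promoter peaks in 3 of 3. DRE was found in 2.44 ± 0.874% of upstream and 0.371 ± 0.177% of downstream windows, and motif 1 in 1.20 ± 0.236% and 0.421 ± 0.259%. Motif 7 was found in 6.66 ± 1.06% and 5.06 ± 0.148%. CAGCTG was found in 11.6 ± 0.113% of upstream and 14.7 ± 1.30% of downstream windows. Core promoter windows were above both in 3 of 3 replicates for DRE, motif 1, motif 7 and CAGCTG. For CAGCTG the difference from downstream peaks was small and uneven, 2.19 ± 2.34 points (SD, n = 3). In the IDR list CAGCTG was in 16.5% of core promoter and 16.3% of downstream windows. Mean GC content was 44.2 ± 0.573% in core promoter windows, 42.7 ± 1.21% upstream, 45.6 ± 0.210% downstream and 45.0 ± 0.119% over 500 bp away. Windows centred near a TSS contain the stretch where promoter motifs lie in any gene, and the comparison of start sites that follows holds that position fixed.

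**Figure D3:**
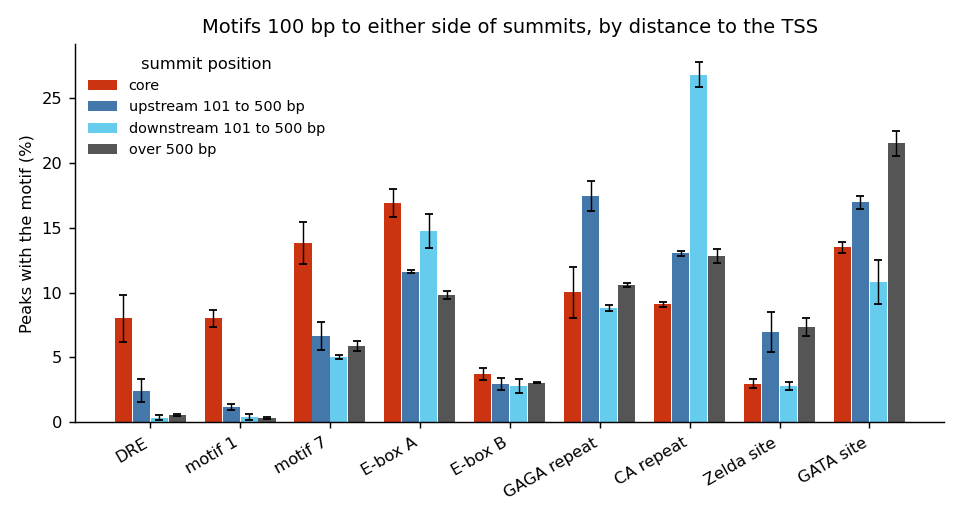
Share of peaks (vertical axis, %) with each motif within 100 bp of the summit, for core promoter peaks, peaks beyond the limit but within 500 bp upstream or downstream, and peaks over 500 bp from a TSS; E-box A is CAGCTG and E-box B is CACGTG. Bars are means and whiskers SDs over 3 replicates; core promoter bars are highest for DRE, motif 1, motif 7 and both E-boxes, and the downstream bar is highest for the CA repeat.

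Start sites with a summit within 100 bp (889, 1025 and 986 in replicates 1, 2 and 3) were compared with those with none within 1000 bp (15981, 15580 and 15791), over the same bases around the TSS. TATA boxes were less frequent at bound start sites. They stood at 3.60%, 2.44% and 2.54% of bound start sites in replicates 1, 2 and 3, against 8.58%, 8.80% and 8.76% of unbound ones, a difference of -5.85 ± 0.761 percentage points (SD, n = 3). The replicate values of the groups did not overlap, which held for every motif here other than the Inr. The 23 members with a TATA box, with neur among them, had it at a median of -24.5 bases. The Inr did not separate the groups, with 12.4 ± 1.38% of bound and 13.3 ± 0.116% of unbound start sites and a lower bound share in 2 of 3 replicates. TCT initiators were at 1.96 ± 0.0591% of bound and 1.24 ± 0.0213% of unbound start sites.

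Motifs of broadly active promoters were more frequent at bound start sites. DRE stood at 7.99%, 11.6% and 9.33% of bound start sites in replicates 1, 2 and 3, against 5.94%, 5.69% and 5.74% of unbound ones. Motif 1 was at 8.17 ± 0.224% of bound and 5.07 ± 0.0505% of unbound start sites, motif 7 at 13.3 ± 1.52% and 9.13 ± 0.113%, CAGCTG at 15.8 ± 0.899% and 11.2 ± 0.107%, and CACGTG at 3.43 ± 0.453% and 2.17 ± 0.0322% (SD, n = 3 each). All 5 were higher at bound start sites in 3 of 3 replicates. GAGAGAG, the Zelda site and CACACACA were more frequent too. GAGAGAG was at 10.2%, 7.51% and 8.22% of bound start sites in replicates 1, 2 and 3, against 3.42%, 3.52% and 3.52% of unbound ones. The Zelda site was at 2.10 ± 0.0660% of bound and 0.669 ± 0.0136% of unbound start sites, and CACACACA at 6.39 ± 0.385% and 2.61 ± 0.0269%. In the stronger 50% of each list the difference was smaller for DRE (2.13 percentage points, against 3.85 in the longer lists), motif 1 (1.91, against 3.09), CAGCTG (2.15, against 4.63) and TCT (0.414, against 0.722). It was also smaller there for motif 7 (3.11, against 4.21) and CACGTG (1.12, against 1.25). It was larger there for GAGAGAG (7.10, against 5.17), the Zelda site (2.35, against 1.43) and CACACACA (5.78, against 3.78). The Zelda site was scarcer at core promoter summits than at the other summits, but more frequent at bound than at unbound start sites.

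The exception among the motifs read on both strands was GATAAG, at 9.69 ± 0.0814% of bound and 10.6 ± 0.0974% of unbound start sites, lower in 3 of 3 replicates. GC content averaged 45.6 ± 0.337% at bound and 42.2 ± 0.0311% at unbound start sites, and its part in the motif shares was not tested. Every motif other than the Inr had 1 direction in all 3 replicates, p = 0.25 in the two-sided exact sign-flip permutation test and 0.273 after Benjamini-Hochberg adjustment over 12 motifs.

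Start sites whose nearest summit lay beyond 100 but within 500 bp were close to bound sites in several of these features and differed by smaller amounts in others. Those start sites held a TATA box in 3.60 ± 0.234%, motif 1 in 7.73 ± 0.0519%, motif 7 in 13.8 ± 0.337% and the Zelda site in 1.98 ± 0.361% of cases. The difference of bound from these flanked sites was -0.746 ± 0.411 percentage points for the TATA box, 0.435 ± 0.202 for motif 1, 2.20 ± 2.04 for DRE, 1.31 ± 1.10 for GAGAGAG and 0.952 ± 0.462 for CACACACA, and GC content differed by 1.13 ± 0.0519 points. Each had 1 sign in 3 of 3 replicates (SD, n = 3; two-sided exact sign-flip permutation test, p = 0.25). For motif 7, both E-boxes, the Zelda site, GATAAG, the Inr and TCT the sign differed between replicates.

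**Figure D4:**
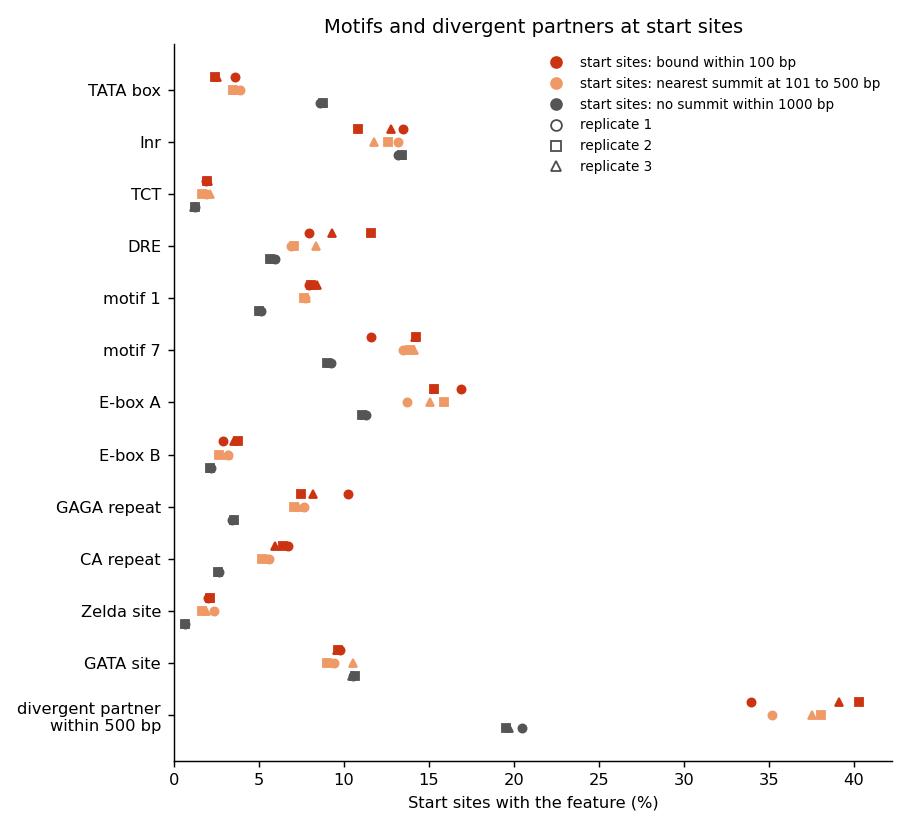
Share of protein-coding start sites (horizontal axis, %) that hold each motif or a divergent partner within 500 bp, for sites bound within 100 bp, sites with the nearest summit beyond 100 but within 500 bp and sites with no summit within 1000 bp; E-box A is CAGCTG and E-box B is CACGTG. Point shapes are the 3 replicates; bound sites lie left of unbound sites for the TATA box and right of them for DRE and for divergent partners (34.0 to 40.3% against 19.6 to 20.5%).

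Divergent gene pairs were common among bound start sites. A divergent partner, a protein-coding TSS on the other strand within 500 bp upstream, was present at 34.0%, 40.3% and 39.1% of bound start sites in replicates 1, 2 and 3, against 20.5%, 19.6% and 19.7% of unbound ones. The difference was 17.9 ± 3.87 percentage points (SD, n = 3; two-sided exact sign-flip permutation test, p = 0.25), and the groups did not overlap, as for every motif other than the Inr. Start sites with the nearest summit beyond 100 but within 500 bp had a partner in 36.9 ± 1.54% of cases, 0.856 ± 1.83 points below bound sites, with a sign that differed between replicates. A summit between the start sites of a pair is near both, so a pair can enter more than once.

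Among the members, 320 (35.8%) had a divergent partner and the median gap between the start sites was 251 bp. Their summits were upstream of the nearest TSS, in the gap, in 184 of 320, against 316 upstream of the 575 members with no partner. Their median signal was 439, against 476 without a partner, and 62.8% were matched in all 3 replicates, against 71.5%. These values over members are descriptions with no test.

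Summits of members with motif 1 sat farther downstream than those of all members, while the other motif groups described here lay closer to all members. The 85 members with a DRE had it at a median of -34.5 bases, and their summits were upstream in 61.2%. The 75 members with motif 1 had it at a median of -7.5 bases, and their summits were upstream in 40.0%. In the replicates the upstream share of motif 1 members was 40.0%, 40.5% and 41.3%, and that of DRE members 56.6%, 59.5% and 60.0%. The share of all members was 56.1%, 55.4% and 56.7%. The median summit of motif 1 members lay at 18 bp, the farthest downstream of the motif groups. The 88 members with GAGAGAG had it at a median of -60.5 bases, with 48.9% of summits upstream and a median summit at 3 bp. Their upstream share was 54.5%, 47.7% and 50.6% in the replicates. Members with CACACACA (62) had the highest median signal of the motif groups, 538, and 77.4% of them were matched in all 3 replicates, while DRE members had a median signal of 441 and 56.5% were matched in all 3.

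Of 92 genes for cytoplasmic ribosomal proteins, the subunits of the ribosome outside mitochondria, 29 (31.5%) had a core promoter peak, beside 6.62% of all protein-coding genes, and 23, 40 and 25 did in replicates 1, 2 and 3. In the IDR list 38 had a summit within 500 bp, and in 76.3% of these one lay within 100 bp, beside 43.8% of all genes with a summit within 500 bp. That share was 85.2%, 80.0% and 69.4% of ribosomal protein genes in replicates 1, 2 and 3, beside 44.5%, 44.6% and 45.2% of all genes. The median signal was 412 over the 28 members nearest to a ribosomal protein gene, beside 464 over all members. Of these 28, 46.4% were matched in all 3 replicates, beside 68.4% of all members, and replicates 1, 2 and 3 matched 17, 27 and 22 of them. In the stronger 50% of the IDR list 9 of the 92 genes (9.78%) had one, beside 3.21% of all genes. Among IDR peaks matched in both replicates 1 and 3, 14 of the 92 genes had one, beside 671 of all protein-coding genes. With a match in both replicates 1 and 2 these counts were 17 and 669, and with one in both replicates 2 and 3 they were 23 and 758.

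RpL7, a large-subunit protein gene that starts 30 bp from the divergent Ripalpha, had the strongest of these peaks, with 9.33, 11.6 and 8.23 times the median signal in replicates 1, 2 and 3 and the summit 20, 23 and 11 bp downstream of the TSS. Its motif 1, printed above, lies at -14 to -7. RpS30, with a TCT initiator at -1 to 3, had 4.76, 8.23 and 7.33 times the median. RpL13A, with the IDR summit on its TSS, had 4.16, 5.15 and 6.75 times. Of the 28 members, 6 held a DRE, 5 a TCT initiator, 4 motif 1 and none a TATA box, and 16 had a divergent partner.

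Other genes of growth and gene expression varied from list to list. Translation factors had a core promoter peak at 10 of 53 genes (18.9%), with 7, 9 and 14 in the replicates. The strongest was at eIF3h, an initiation factor subunit, with 7.99, 9.08 and 10.4 times the median. Then came eIF4E1, the cap-binding factor, with 7.89, 6.66 and 9.09 times, and eRF1, the release factor. Replication and histone chaperone genes had one at 5 of 26 (19.2%), namely Orc1 of the origin recognition complex, geminin, an inhibitor of replication licensing, the chaperone asf1, and the helicase subunits Mcm3 and dpa. The peak at dpa was weak, with 0.816 times the median in replicate 1 and 2.03 and 2.92 times in the other replicates.

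Several other lists of genes active in most cells had IDR counts nearer to the share of all genes, and some had more in replicate 1. Mitochondrial ribosomal protein genes had a core promoter peak at 7 of 73 (9.59%), with 6, 5 and 9 in replicates 1, 2 and 3, the strongest at mRpL16 with 7.87, 10.8 and 12.2 times the median, then mRpL40 and mRpS16, whose summit lies nearer to the TSS of cg. Oxidative phosphorylation genes had 8 of 84 (9.52%), with 4, 8 and 8 in the replicates, the strongest being ND-B18, ND-ACP and ATPsynC. Proteasome subunits had 2 of 48 (4.17%), Rpt4 and Rpn2, with 2, 3 and 2 in the replicates, and spliceosome genes 2 of 29 (6.90%), SmD3 and LSm3, with 2, 2 and 3. Of 18 cytoplasmic tRNA synthetases 1 did, GlyRS, with 3, 1 and 1 in the replicates, and of 25 heat shock genes 1, Hsp83, with 3, 2 and 1. Of 27 basal transcription and core promoter factors, 2 (7.41%) had a core promoter peak in the IDR list, and 6, 3 and 3 did in replicates 1, 2 and 3. Those in the IDR list were Trf2, a TBP-related factor that acts at TATA-less promoters, with 8.90, 8.18 and 9.31 times the median, and Dref, with 5.45, 4.92 and 5.49 times.

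Zygotic patterning genes were also represented at their core promoters. Pair-rule genes had 4 of 9 (44.4%), with 3, 3 and 4 in the replicates: hry, prd, slp1 and opa. All 4 encode transcription factors, and after hry the strongest was prd, with 6.06, 4.34 and 4.31 times the median. Gap and terminal genes had 4 of 14 (28.6%): Kr, hb, knrl and tll. Kr, a gap repressor, had 4.24, 4.02 and 5.91 times the median, with summits at -58, 0 and -26 bp. Segment polarity genes had 3 of 13 (23.1%): mid, ci, the Hedgehog pathway effector, and ptc, the Hedgehog receptor. Of 8 Hox genes only lab had one in the IDR list, and of 11 E(spl) complex genes only E(spl)m7-HLH, while the replicates counted 3, 1 and 1 Hox genes and 4, 3 and 1 E(spl) genes. Of the genes with a summit within 500 bp, 4 of 12 gap and terminal, 4 of 7 pair-rule, 1 of 6 Hox and 1 of 8 E(spl) genes had one within 100 bp, beside 43.8% of all genes.

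Dorsoventral genes had a core promoter peak at 9 of 29 (31.0%), with 8, 10 and 12 in the replicates. The strongest were dpp, the BMP ligand of the dorsal side, with 5.66, 8.48 and 9.48 times the median, Doc1, a T-box factor, and Mef2, a factor of muscle development. The replicate summits nearest to the IDR summit at Mef2 lay at -175, -112 and -136 bp, outside the limit. Genes of cellularisation and early zygotic expression had 7 of 15 (46.7%), with 6 in each replicate. Among these, sc, a proneural gene that also counts X chromosomes, had 9.42, 8.06 and 10.4 times the median, with summits at -60, -54 and -50 bp. The peak at halo had 8.38, 9.20 and 8.88 times, and T48, a membrane protein of mesoderm invagination, followed.

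Genes of chromatin regulation stood beside them. Polycomb and trithorax genes had a core promoter peak at 8 of 19 (42.1%), with 8, 7 and 10 in the replicates, and after Sfmbt the strongest were Su(z)2, a Polycomb group protein gene with 6.23, 6.29 and 6.10 times the median, and trx, a histone methyltransferase gene. Insulator and GAGA-type factors had 5 of 16 (31.3%): pita, Chro, Cp190, zld and Ibf2. The peak at pita, an insulator zinc-finger gene, had 11.0, 8.08 and 8.43 times the median. At Cp190 the replicate summits nearest to the IDR summit lay at -153, -101 and -196 bp, each outside the limit. Whether another summit of a replicate lay within it is not shown by these values. The peak at zld, which encodes Zelda, had 3.26, 3.21 and 3.26 times the median. In replicate 2 the summit nearest to its IDR summit lay outside the limit, at 170 bp.

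Cell cycle genes had 6 of 27 (22.2%), and the replicates counted 4, 9 and 5. The strongest was at polo, a mitotic kinase, with 2.98, 2.76 and 4.31 times the median in replicates 1, 2 and 3. E2f1 had 3.59, 3.21 and 3.17 times and CycE 1.88, 3.40 and 2.75 times. Against the median of the shorter IDR list these peaks stood at 1.01 to 1.06 times. Genes of the Notch, Wnt and Hedgehog pathways had 5 of 24 (20.8%): arm, Apc, neur, fz2 and pan. Apc, part of the beta-catenin destruction complex, had 5.11, 1.35 and 8.79 times the median, and in replicate 2 the nearest summit ranked only 9119. Cell death genes, the class in which Mabi itself is listed, had 2 of 22 (9.09%). These were Traf4, with 0.802, 8.14 and 8.93 times the median, and rpr, an activator of apoptosis, with 3.72, 3.16 and 4.99 times. The replicate 1 value of Traf4 is that of a summit 156 bp downstream of the TSS, at rank 21084. Whether a stronger summit of replicate 1 lay close by is not shown by these values.

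Genes used late in life or in few tissues had no core promoter peak in the IDR list. None of 179 chemoreceptor, 123 cuticle, 47 accessory gland or 14 chorion genes had one; the Wilson 95% upper limits are 2.10%, 3.03%, 7.56% and 21.5%. Replicate 1 had one at 1 cuticle gene, replicate 2 at 2 and replicate 3 at none, and no replicate had one in the other 3 lists. No set test was made on any list, and the counts are read only against the share of all genes.

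**Figure D5:**
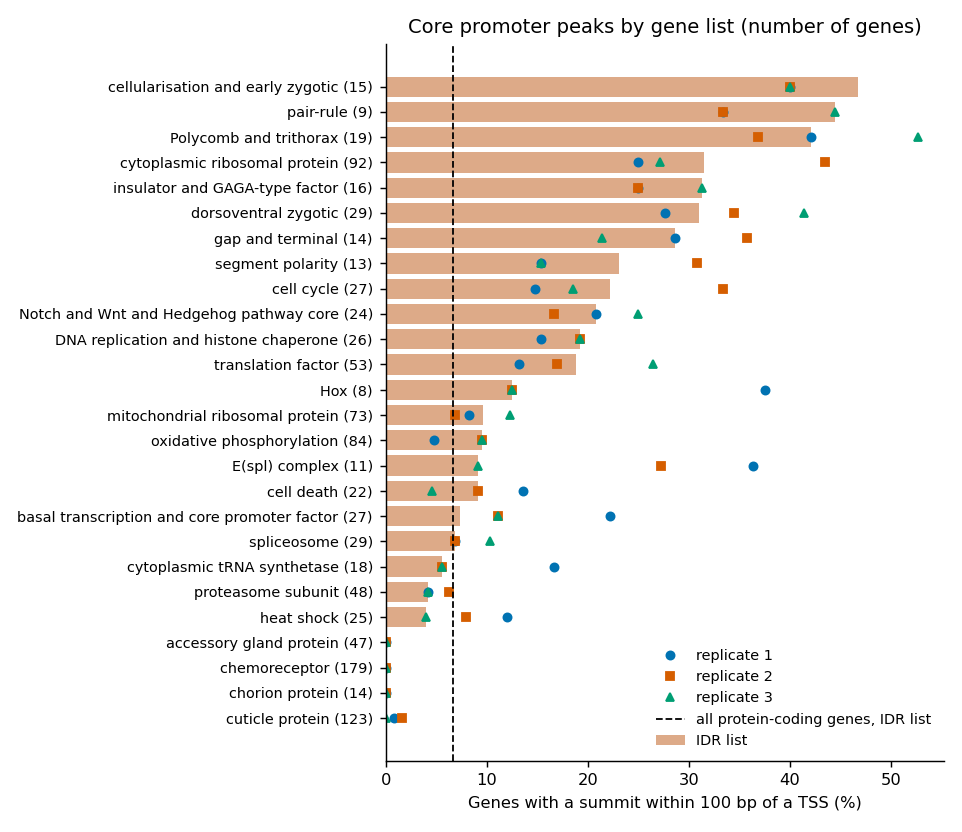
Share of genes (horizontal axis, %) with a summit within 100 bp of a TSS in each of 26 gene lists, with the number of genes in brackets. Bars are the IDR list, points the 3 replicates and the dashed line the share of all protein-coding genes, 6.62%; ribosomal protein genes stand at 31.5% and the 4 lists of late or tissue-specific genes at 0.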

How the data were processed

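The authors deposited 5 peak lists on dm6 (3 replicates, their pool and the optimal IDR list), each peak with a signal value of unstated scale, a summit and a −log10 q value (4.16 for every IDR peak). Per the deposited text files, each replicate was called from its alignment and a control shared by all 3. Caller and aligner are not given in the sources used. The pooled list, alignments and signal tracks were not used here. Summits were assigned to the nearest TSS of 30773 protein-coding transcripts (19276 positions) of Ensembl release 115, whose build is Release 6, and sequence was read from the RefSeq copy. These may differ from the authors' copies. Bound, flanked (beyond 100 but within 500 bp) and unbound (none within 1000 bp) start sites were compared per replicate, by exact sign-flip tests over 3 replicates with Benjamini-Hochberg adjustment. Scripts used Python 3.11.15, numpy 2.4.6, pandas 2.3.3 and scipy 1.17.1 and were tested on simulated data. Depth is unknown, and Wilson intervals take peaks or genes as independent.

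The members, motifs and gene lists were chosen with earlier results of these data known. After values were seen, Cp190 and Cp110 were kept out of the chorion list, and fry and slp1 were each taken out of a wrong list. Named genes are those at the 15 strongest members, up to 3 per list with the highest core promoter signal (all where 5 or fewer), Mabi, and the pairs at the limit. Per-replicate values of a gene are those of the summit nearest to its IDR summit, at most 250 bp away, in the complete replicate list. That summit need not be the one nearest to the TSS. Alternatives were limits of 50 and 200 bp, 1 TSS per gene, the stronger 50% of each list, each replicate left out, other overlaps and windows, 1 summit per interval and partners within 1000 bp.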

Additional observations from a re-analysis of the deposited data

How the results depend on the processing

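With a limit of 50 bp the IDR list held 490 core promoter peaks at 503 genes, with 200 bp 1468 peaks at 1497 genes, and in the stronger 50% of the list 429 peaks at 448 genes. The upstream share was 58.2% with the 200 bp limit and 54.1 to 56.3% with a replicate left out. Of 25 differences recomputed 196 times, 192 values kept their direction and 4 turned, but sizes moved. With windows of 50 bp to either side the motif differences at peaks were smaller for all 9 motifs (DRE 4.26, motif 1 3.88, Zelda site -1.72 points). With 1 TSS per gene the differences at start sites were smaller for GAGAGAG (3.37), CACACACA (2.40) and TCT (0.377) and larger for GATAAG (-1.60), which was -1.99 with the 50 bp limit. GAGAGAG in core minus other peaks ranged from -2.40 without replicate 1 to -0.595 without replicate 2, and the Inr from -1.61 to -0.176 without the same replicates. The Inr at bound minus unbound start sites was 0.0317 percentage points with the 50 bp limit and 0.756 for the stronger 50%, and GAGAGAG in core minus other peaks was 0.0106 points with the 200 bp limit. The difference in matched share ranged from -2.45 to 0.389 points with a replicate left out, positive without replicate 1. The cause was not tested. The difference in divergent partners ranged from 16.5 to 20.1 points with a replicate left out and was 13.6 points in the stronger 50% of the list. No paired analysis was possible because the series has 1 group, so no replicate numbers are shared between groups; each difference was taken within a replicate. Limits are the 3 replicates, which cannot give a p below 0.25, the shared control, the unknown depth, and annotated start sites that need not be those used in these embryos.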

Other observations

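The share of genes with a core promoter peak was even over the large chromosome arms, between 6.45% on 2R and 6.88% on X, where 151 of 2196 genes had one. On chromosome 4, a small and largely heterochromatic chromosome, 10 of 80 genes (12.5%) had one, and 12.5%, 12.5% and 8.75% did in replicates 1, 2 and 3. The genes ci and pan are among them. None of 23 genes on Y had one.

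Genes with several promoters were often bound at one that is not the first. Of the genes with a core promoter peak, 261 (28.2%) have start sites more than 1000 bp apart, against 8.96% of genes with no summit within 1000 bp, and a gene with more start sites has more places to hold a summit. Of these 261 genes, 121 had a peak at the most upstream promoter, 17 of them at a later one too, and 140 had one only at a later promoter. In replicates 1, 2 and 3 the first promoter was bound in 41.3%, 46.2% and 46.6% of such genes. The median gene span was 4207 bp for genes with a core promoter peak, 4549 bp for those with the nearest summit beyond 100 but within 500 bp and 1934 bp for those with none within 1000 bp.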
